A study of Homo sapiens with 12 samples.

Results

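HD-MB03 cells that received no drug were compared after 48 h and after 24 h in DMSO, the solvent control, so that the comparison holds what changed over a further day in culture. These are 6 of the 12 arrays of the series, 3 for DMSO at 24 h and 3 for DMSO at 48 h, chosen by treatment and time in the sample titles alone. HD-MB03 is a human group 3 medulloblastoma line with an amplified MYC gene, and it was grown in RPMI medium with 10% fetal calf serum. The other 6 arrays carry RNA of the same cells kept for 24 h or 48 h in 1 µM entinostat, an inhibitor of class I histone deacetylases, again with 3 biological replicates per time. A separate label calls the DMSO samples untreated, while the titles and the treatment text give them DMSO. All values come from 1 established line, and neither the cell density at harvest nor a change of medium is given in the sources used here.

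Group 3 medulloblastoma is a childhood tumour of the cerebellum that expresses MYC together with a part of the photoreceptor program, which the homeobox factors OTX2 and CRX and the leucine zipper factor NRL drive in the retina. When oxygen is low, the HIF factors turn on hypoxia-responsive genes for glucose uptake and vessel growth. BMP ligands signal through SMAD proteins to the ID genes, which encode inhibitors of basic helix-loop-helix factors.

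The platform was the U133 Plus 2.0 expression array of Affymetrix, on which a probe set is a group of short probes for a transcript. The values are intensities on a linear scale, of which log2 was taken, and each gene stands for its probe set with the highest mean. The median intensity of an array was 80.6 to 81.8 and the lowest value 36.7, so a background level is part of every value and log2 differences of dim probe sets are compressed. Correlations of log2 values were 0.993 to 0.9945 within a time and 0.9907 to 0.9943 between the times. As a check of RNA integrity, the 3' control probe set of GAPDH minus its 5' one gave -0.11 on the log2 scale at both times (exact permutation test, two-sided, p = 0.8, n = 3 against 3, where the smallest possible p is 0.1). For ACTB it was -0.11 ± 0.028 (SD, n = 3) at 24 h and -0.07 ± 0.039 (SD, n = 3) at 48 h (same exact test, p = 0.2). Of the 8 markers of group 3 tumours, 6 had a mean intensity over 128 at either time, led by MYC and OTX2, with CRX past it at 48 h alone, while NPR3 and RCVRN were near background. No marker of endothelial, epithelial or immune cells or of WNT tumours exceeded 128, and 1 each did so for fibroblasts, glia, group 4 and SHH tumours. No marker of any list passed the test between the times.

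Few genes were called over the further day in DMSO, and small changes can be missed with 3 arrays per group. Of 19775 genes, 43 were higher at 48 h (0.217%) and 48 lower (0.243%), 91 in all (0.46%), at an adjusted p under 0.05 from limma over 54613 probe sets. Among probe sets, 196 passed (0.359%), 111 higher (0.203%) and 85 lower (0.156%). The changes were small, with a median size of 0.44 on the log2 scale among the 91 genes, 28 of them at 0.5 or more and 2 at 1 or more. On all 91 the 3 arrays at 48 h lay apart from the 3 at 24 h, as they did on 1801 genes above (9.11%) and 2017 below (10.2%) among all genes. An unadjusted p under 0.05 was reached by 2597 genes (13.1%). Because whole cultures were measured, a smaller share of cells in a given state and less RNA per cell cannot be told apart.

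The number of calls rested on single arrays. Without 48 h replicate 3 no gene passed in limma, with 2054 at an unadjusted p under 0.05, and without 48 h replicate 2, 24 h replicate 1 or 24 h replicate 2 the count was 5, 8 and 12. It was 56 without 48 h replicate 1 and 166 without 24 h replicate 3. Fitted on the 6 DMSO arrays alone, limma called no gene, with 2519 at an unadjusted p under 0.05 and a lowest adjusted p of 0.0707 over probe sets. All 91 genes kept their sign in each of these refits. Of the 42 named genes that passed, 7 kept the call in 3 or more of the 6 refits that each left out 1 array, led by CSNK1G1, ID1 and TP53I3 with 5. Another 17 kept it in 2 refits, 13 in 1, and RUNX2, H2AC8, PDK1, ACTB and PARP12 in none.

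**Figure D1:**
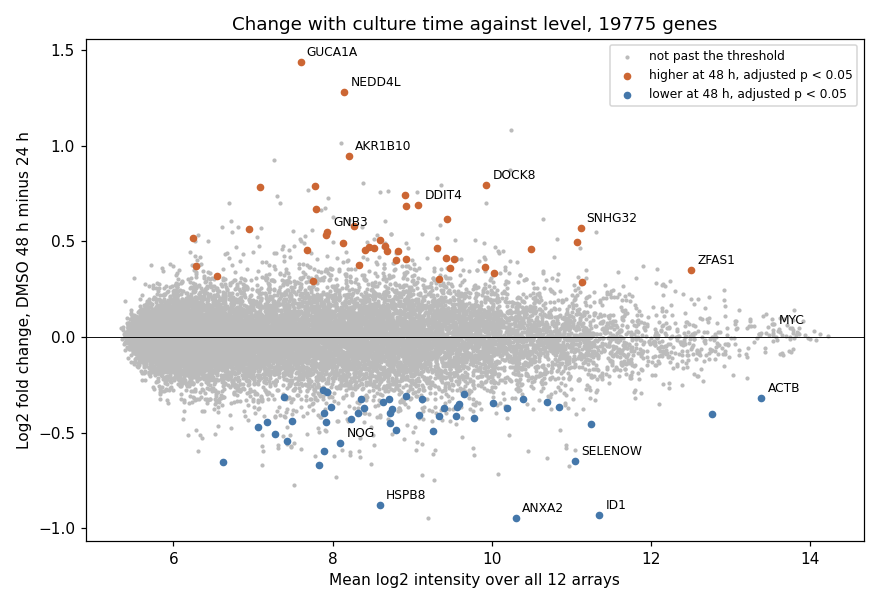
Each point is 1 of 19775 genes, with its mean log2 intensity over all 12 arrays on the x axis and its log2 fold change between DMSO at 48 h and 24 h on the y axis. Orange marks the 43 genes higher at 48 h and blue the 48 lower at an adjusted p under 0.05, and grey all others. Few called genes lie at the dim end, with 4 higher and 1 lower among the 10422 genes of a mean log2 under 7. GUCA1A and NEDD4L are the only called genes past a log2 fold change of 1.

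The largest rise was that of the photoreceptor gene GUCA1A. Of the list of photoreceptor genes it passed together with GNB3, and PCARE, RBP3 and CRB1, retinal genes outside the list, passed as well. GUCA1A, which encodes a calcium sensor that controls guanylate cyclase in photoreceptors, had intensities of 188, 148 and 308 on the 24 h arrays and 481, 659.7 and 540.0 on the 48 h arrays. Every 48 h array was above every 24 h array, and 24 h replicate 3 lay nearest to the later time. GUCA1A thus had 1.44 as log2 fold change, with a standard error of 0.22 (adjusted p = 0.0248 from limma), and another probe set of the gene passed with 1.24. GNB3, the beta subunit of the cone transducin, had 247, 277 and 276 at 24 h and 350.5, 389 and 434 at 48 h. The groups did not overlap, and the log2 fold change was 0.55 (adjusted p = 0.0375). PCARE, a protein of the photoreceptor cilium, was dim at 99.9, 114 and 90.5 and then 141, 154 and 153, a log2 fold change of 0.56 (adjusted p = 0.0268). It too was separate between the times on all arrays. RBP3, the retinoid-binding protein of the photoreceptor matrix, and CRB1, a polarity protein of the retina, were picked out after their values were seen. RBP3 rose by a log2 fold change of 0.45 (adjusted p = 0.0259) and CRB1, at a mean of 101 ± 5.95 (SD, n = 3) still near background at 48 h, by 0.52 (adjusted p = 0.00794).

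Of the 43 measured genes of the photoreceptor list, 2 passed as higher, GUCA1A and GNB3, against 0.217% of all genes, and none as lower. On 12 members all 48 h arrays lay above all 24 h arrays and on 1 below, where all genes gave 9.11% and 10.2%, and the median log2 fold change was 0.08 against -0.0017 over all genes. Members that did not pass were singled out after their values were seen. The phosphodiesterase subunit PDE6A had 154, 115 and 202 at 24 h and 236, 332 and 313 at 48 h (log2 difference 0.93, adjusted p = 0.0656). GUCA1C, a paralog of GUCA1A, had 290.3, 199.6 and 496 and then 550.4, 714 and 604 (log2 difference 1.02, adjusted p = 0.13). AIPL1, a chaperone for that phosphodiesterase, had 247, 183 and 354 and 399.5, 444 and 478 (log2 difference 0.80, adjusted p = 0.0993). In all 3 the highest 24 h array was again replicate 3, below the lowest 48 h array. The transcription factor NRL had a wide spread, with 671, 964 and 1593 at 24 h and 1749, 1966 and 2852 at 48 h (log2 difference 1.08, adjusted p = 0.277). CRX was dim and overlapped between the times, with 84.3, 119.8 and 128 and 126, 147 and 141. OTX2 was bright and overlapped as well, with 6259, 6376 and 7049 and 6956, 7068 and 6959 (log2 difference 0.09, adjusted p = 0.703).

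**Figure D2:**
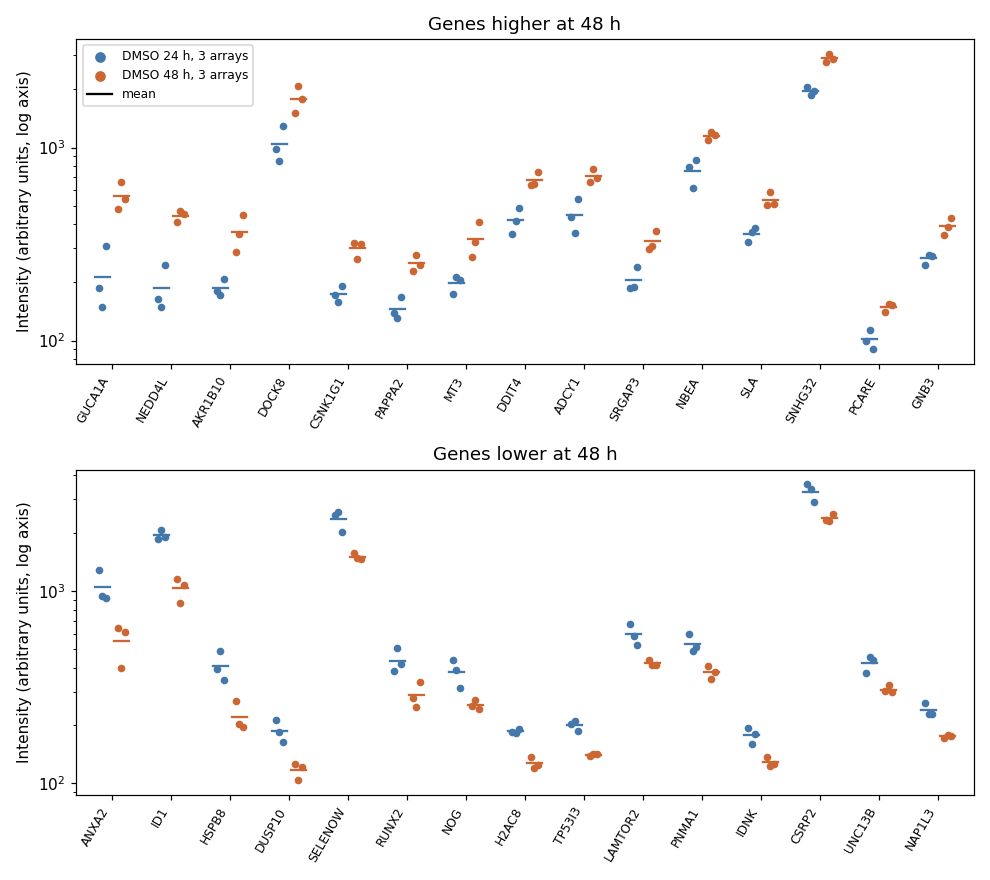
Intensities on a log axis for the 15 largest rises (upper panel) and 15 largest falls (lower panel), ordered by log2 fold change, with 1 point per array (blue, DMSO at 24 h, 3 arrays; orange, DMSO at 48 h, 3 arrays) and a bar for the mean. The 2 times are separate for each gene, which the choice of genes required, and the gap is widest for GUCA1A and NEDD4L.

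CRX and OTX2 bind sites with the core TAATCC, and this core was searched on both strands of the RefSeq windows that hold 250 bases before and 50 bases after each gene's start (assembly GRCh38.p14). It was present in 6.36% of 35116 windows and for 7.11% of the 15384 measured genes with a window. Among the photoreceptor list it was present for 8 of 34 genes with a window (23.5%), and among the 43 higher genes for 5 of 33 (15.2%), which are GUCA1A, PCARE, CRB1, NBEA and DCAKD. Counting genes with any probe set called higher, it was 6 of 63 (9.52%). The windows of GUCA1A and PCARE, retinal genes that passed and have 2 cores each, are shown. They run up to the base before the start, 5' to 3' on the gene's strand, with the core on either strand in capitals. That of GUCA1A lies at chr6:42173114-42173363 on the plus strand and has 2 cores, which begin 144 and 88 bases before the start, the first of them in reverse. That of PCARE lies at chr2:29074524-29074773 on the minus strand, with cores that begin 171 and 24 bases before the start.
GUCA1A: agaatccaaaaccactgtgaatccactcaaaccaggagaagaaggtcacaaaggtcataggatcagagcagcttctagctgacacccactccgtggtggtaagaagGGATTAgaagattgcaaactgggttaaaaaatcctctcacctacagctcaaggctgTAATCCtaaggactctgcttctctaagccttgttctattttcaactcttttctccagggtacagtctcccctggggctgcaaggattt
PCARE: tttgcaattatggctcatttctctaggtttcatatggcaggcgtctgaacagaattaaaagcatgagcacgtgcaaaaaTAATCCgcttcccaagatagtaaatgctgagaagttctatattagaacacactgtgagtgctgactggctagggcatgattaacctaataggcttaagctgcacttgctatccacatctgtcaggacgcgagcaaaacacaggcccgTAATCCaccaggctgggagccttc
Among genes with a mean log2 of at least 7 over the 12 arrays, the median log2 fold change was -0.007 for 480 genes with the core and -0.005 for 7343 without it.

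Several other large rises were genes of signalling and trafficking. NEDD4L, a ubiquitin ligase that acts on ion channels and on SMAD proteins, had 164, 149 and 246 at 24 h and 410.0, 466 and 450.1 at 48 h. Its groups did not overlap and its rise was 1.28 on the log2 scale, with a standard error of 0.15 (adjusted p = 0.0103), and a further probe set passed with 0.78. DOCK8, an exchange factor for the GTPase CDC42, had 977, 856 and 1291 and then 1516, 2074 and 1790.1. That is a log2 fold change of 0.79 (adjusted p = 0.0453), and its 2 other called probe sets gave 0.45 and 1.33. CSNK1G1, a casein kinase, rose from a mean of 174 ± 16.4 (SD, n = 3) to 301 ± 31.1 (SD, n = 3) (log2 fold change 0.79, adjusted p = 0.00684). PAPPA2, a protease that cleaves insulin-like growth factor binding proteins, rose by 0.79 on the log2 scale and ADCY1, the calcium-stimulated adenylate cyclase of neurons, by 0.69. Another probe set of PAPPA2, at a similar level, had 0.04 (adjusted p = 0.925). SRGAP3, a protein of neurite growth, rose by 0.67, NBEA, a neuronal scaffold protein, by 0.62, and the adaptor SLA by 0.58. AKR1B10, an aldo-keto reductase, went from 180.3, 172 and 207 to 288, 357 and 446, a log2 fold change of 0.95 (adjusted p = 0.0204). It was the only 1 of 19 measured NRF2 and redox genes past the test, against 0.217% of all genes called higher. The list's median was -0.093. MT3, a metallothionein of the brain, rose by 0.74 and was likewise alone among the 10 metallothionein list members, against the same 0.217%.

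Of the hypoxia response, DDIT4 and PDK1 passed. DDIT4, an inhibitor of the growth kinase mTORC1, had 357, 418 and 488 at 24 h and 637, 648 and 744 at 48 h, without overlap. Its log2 fold change was 0.69 (adjusted p = 0.0314). PDK1, which here is a pyruvate dehydrogenase kinase, had 901, 789 and 772 and then 1016, 1127 and 1114 (log2 fold change 0.41, adjusted p = 0.0452), a call lost in all 6 refits without 1 array. The list held 29 measured genes, with a median log2 fold change of 0.18, and 24 of them had a value above 0. On 10 members the 48 h arrays lay above all 24 h arrays (34.5%) and on 1, LOX, below, against 9.11% and 10.2% of all genes, and the 2 calls stand against 0.217%. VEGFA, the vascular growth factor, had 398, 458 and 424 and 495, 712 and 585 (log2 difference 0.47, adjusted p = 0.173). The carbonic anhydrase CA12 had a log2 difference of 0.88 (adjusted p = 0.156) on its brightest probe set, where the times did not overlap but 24 h replicates ranged from 739 to 1622, and another probe set passed with 0.73. Of the hypoxia list, 17 of 24 genes with a window carried ACGTG, the core of the hypoxia response element, against 28.8% of measured genes. Of the 43 higher genes it was present for 15 of 33 with a window (45.5%), and of genes with any probe set called higher for 29 of 63 (46.0%). Over genes with a mean log2 of at least 7 the median log2 fold change was -0.005 both with and without this core. Glycolysis genes, several of which are also hypoxia targets, did not as a list go the same way as the hypoxia list. Of 17, 1 passed as lower, against 0.243% of all genes. This was the hexokinase HK1, with 1710.4, 1634 and 1562 at 24 h and 1381, 1238 and 1195 at 48 h (log2 fold change -0.37, adjusted p = 0.0465). At an unadjusted p under 0.05 in limma, 2 were lower and 2 higher, where all genes gave 13.1% in either direction. A probe set of the glycolysis gene PGK1 that does not represent the gene passed as higher. The list's median was -0.073, and 6 members lay below without overlap (35.3%) and 0 above, against 10.2% and 9.11% of all genes. Its median level was 11.2 to 11.4 on the log2 scale over these arrays, and genes of a mean log2 over 11 gave 24.8% and 17.6%. TXNIP, an inhibitor of glucose uptake that answers to glucose, had 992, 1081 and 1216 and then 1694, 2067 and 1343 (log2 difference 0.62, adjusted p = 0.14).

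Host genes of small nucleolar RNAs and some probe sets of translation genes were also among the rises. SNHG32, such a host gene that is in no list, had 2051, 1861 and 1958 at 24 h and 2787, 3064 and 2865 at 48 h, with no overlap (log2 fold change 0.57, standard error 0.08, adjusted p = 0.0229). ZFAS1, another such host gene, had 5152, 5110.3 and 5428 and then 6424, 6611 and 7000.0 (log2 fold change 0.35, adjusted p = 0.0239). Its 3 brightest probe sets passed, with values between 0.35 and 0.39, while a dim one had -0.14. The long non-coding RNA EPB41L4A-AS1 had 1989, 1629.6 and 1971 and 2487, 2635 and 2753 (log2 fold change 0.50, adjusted p = 0.0248). ZFAS1 and EPB41L4A-AS1 were the 2 of 12 members past the test in the list of small RNA hosts and long non-coding RNAs, whose median was -0.018. The 2 calls stand against 0.217% of all genes called higher. Some probe sets of translation genes that did not stand for their gene also passed. Among them were RPL37 (0.63 and 0.67), RPL31 (0.70), RPS15A (0.36), the initiation factor genes EIF4B (0.37 and 0.47), EIF3F (0.40) and EIF3H (0.39), chosen after their values were seen. These probe sets were dimmer than those that represent the genes, which did not pass, with 0.02 (adjusted p = 0.931) for RPL37, 0.10 (adjusted p = 0.767) for RPL31 and 0.29 (adjusted p = 0.0578) for EIF4B. Among 50 cytosolic ribosomal proteins none passed in limma, with 1 at an unadjusted p under 0.05, the median log2 fold change was 0.023, and 17 lay above without overlap (34.0%) and 2 below, where genes of a mean log2 over 11 gave 17.6% and 24.8%. On the probe sets that represent the genes, the smallest p was that of RPS15A, with 13646, 13696 and 13627 at 24 h and 15439, 14696 and 15073 at 48 h (log2 difference 0.14, adjusted p = 0.273).

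Messages of the translation machinery often begin with a terminal oligopyrimidine run (TOP), a C at the first base followed by further C or T, which couples their translation to nutrient signals. A run of at least 5, starting with C at the annotated start, was present in 4.07% of all windows, for 6.07% of measured genes with a window and for 32 of 44 ribosomal proteins. Of the 43 higher genes it was present for 6 of 33 with a window (18.2%), and of the 48 lower for 0 of 39. Counting genes with any probe set called, it was present for 15 of 63 higher ones (23.8%) and 0 of 58 lower ones. Over genes with a mean log2 of at least 7, the 604 with such a start had a median log2 fold change of 0.036 with 61.4% above 0, and the 7219 without had -0.009 with 47.1% above 0. The 48 h arrays lay above all 24 h arrays for 24.0% of the first and 11.7% of the second, and below for 7.78% and 16.1%. With the ribosomal proteins left out, 569 genes with this start gave a median of 0.036 and 23.7% above without overlap. On the entinostat arrays the medians over the same day were 0.022 with this start and -0.039 without. The starts of 6 genes with a probe set called higher are shown as 15 bases before and 15 after the start, in GRCh38.p14, with the pyrimidine run in capitals. The 30 bases lie at chr20:49278627-49278656 (plus) for ZFAS1, chr6:31834901-31834930 (plus) for SNHG32, chr14:20333265-20333294 (minus) for CCNB1IP1, chr2:101002274-101002303 (plus) for RPL31, chr12:53006441-53006470 (plus) for EIF4B and chr11:7987322-7987351 (plus) for EIF3F.
ZFAS1: aggaagccattcgttCTTTCgcgtctgcgg
SNHG32: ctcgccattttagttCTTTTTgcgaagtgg
CCNB1IP1: ctgtctctccactttCTTTCCCTCTCCgtt
RPL31: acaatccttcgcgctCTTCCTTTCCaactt
EIF4B: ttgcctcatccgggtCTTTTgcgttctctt
EIF3F: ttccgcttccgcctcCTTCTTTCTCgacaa
CCNB1IP1, a meiotic ubiquitin ligase gene, rose by a log2 fold change of 0.29 (adjusted p = 0.0431). EPB41L4A-AS1 had no such run at its annotated start.

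Among the falls, ID1 and NOG belong to the BMP pathway. ID1 had 1861, 2087 and 1920.1 at 24 h and 1149, 869 and 1081 at 48 h, the 48 h arrays all far below the earlier ones (log2 fold change -0.93, standard error 0.10, adjusted p = 0.00794). NOG, which encodes the BMP antagonist noggin, had 438, 386 and 313 and then 253, 271 and 244 (log2 fold change -0.55, adjusted p = 0.0407). ID1 is a target of the pathway and NOG an antagonist. These were the 2 of 23 measured BMP and ID genes past the test, against 0.243% of all genes, and none passed as higher. On 6 members the 48 h arrays lay below without overlap and on 0 above, against 10.2% and 9.11% of all genes, with a median of -0.043. ID3 overlapped between the times, with 416, 503 and 466 and 450.3, 279 and 322 (log2 difference -0.42, adjusted p = 0.319). ID2 did not overlap and had 202, 186 and 185 and 168, 159 and 169 (log2 difference -0.20, adjusted p = 0.813). RUNX2, a factor of bone development, fell by 0.60 on the log2 scale, from 383, 505 and 417 to 279, 249 and 335. Its adjusted p of 0.0469 in limma was lost in all 6 refits without 1 array.

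Falls also included 2 of the genes for actin and its binding proteins. ANXA2, a membrane protein that binds actin and calcium, had 1295, 942 and 916 at 24 h and 645, 396 and 613 at 48 h, with no overlap and a wide spread at both times. ANXA2 fell by 0.95 on the log2 scale, with a standard error of 0.17 (adjusted p = 0.0453), and 2 more probe sets passed with -0.78 and -0.74. All 3 end in _x_at, which marks probe sets that can bind other transcripts, and the remaining probe set of the gene was at background. ACTB, the cytoplasmic beta-actin, had 12157, 11258 and 11847 and 9589, 9290.4 and 9332 (log2 fold change -0.32, adjusted p = 0.0462), a call likewise lost in all 6 refits without 1 array. The control probe sets of ACTB, left out of the fit, had log2 differences of -0.23 at the 3' end and -0.26 at the 5' end. Those of GAPDH gave -0.044 and -0.042. Of 28 measured members of the list, 11 lay below without overlap and 0 above, against 10.2% and 9.11% of all genes. The 2 calls stand against 0.243% of all genes called lower, and the median was -0.16. The list's median differed from the 24 h mean by -0.12 to -0.23 over the 48 h arrays. CSRP2, a LIM protein of smooth muscle that is outside the list, fell by 0.46 on the log2 scale from 3589, 3389 and 2893 to 2353, 2313 and 2505.

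The remaining falls belong to varied pathways. HSPB8, a small heat shock protein, had 391, 487 and 345 at 24 h and 266, 202 and 196 at 48 h (log2 fold change -0.88, adjusted p = 0.0248). It was the only 1 of 20 heat shock genes past the test, against 0.243% of all genes called lower. SELENOW, a small selenoprotein of redox control, had 2491, 2593 and 2041 and then 1582, 1479.8 and 1467 (log2 fold change -0.65, adjusted p = 0.0204). TP53I3, a p53 target that encodes a quinone reductase, had 203, 211 and 188 and 138, 143 and 142 (log2 fold change -0.51, adjusted p = 0.00794). The 3 arrays of each time lay close together for TP53I3. It was 1 of 22 p53 targets past the test, against 0.243% of all genes called lower, and the list had 5 members above and 5 below without overlap, against 9.11% and 10.2%. CDKN1A, the best known p53 target, overlapped at 372, 472 and 353 and 369, 361 and 332. DUSP10, a phosphatase of stress kinases, fell by 0.67, LAMTOR2, a scaffold subunit on the lysosome that takes part in mTORC1 signalling, fell by 0.49, and H2AC8, a replication-dependent histone H2A gene, fell by 0.55 on the log2 scale. PNMA1 fell by 0.49, the gluconokinase gene IDNK fell by 0.47, UNC13B, a protein of vesicle priming, fell by 0.45, and NAP1L3, of the nucleosome assembly family, fell by 0.45. The lipid carrier FABP5 fell by 0.34 (adjusted p = 0.0229) and the tryptophanyl-tRNA synthetase WARS1 fell by 0.38 (adjusted p = 0.0284).

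On the proteasome list most members were lower at 48 h by a small amount, though none passed the test. At an unadjusted p under 0.05 in limma 19 were lower and 1 higher, where all genes gave 13.1% in either direction. The proteasome is the protease that degrades ubiquitinated proteins. On 23 of 30 members all 48 h arrays lay below all 24 h arrays and on 1, PSME1, above. Genes with a mean log2 of at least 7 in the group where they are highest are called bright here, and of these the arrays of 14.8% lay below and of 12.4% above, and all 30 members are bright. The list's median level was 11.1 to 11.4 on the log2 scale over these arrays, and genes of a mean log2 over 11 gave 24.8% below and 17.6% above. The list's median log2 fold change was -0.14 and 27 of 30 members were below 0. PSMD3, a subunit of the 19S lid and the member with the smallest p, had 1241, 1324 and 1169.7 at 24 h and 983, 1058 and 1041 at 48 h (log2 difference -0.28, standard error 0.06, adjusted p = 0.0685). The list's median per array was -0.12, -0.18 and -0.15 at 48 h and within -0.038 to 0.031 of the 24 h mean at 24 h. Without each DMSO array in turn it lay between -0.17 and -0.13. On the entinostat arrays the same list had a median of -0.02 over the day.

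Oxidative phosphorylation genes had smaller differences of the same sign. Of 50, none passed in limma, and 7 had an unadjusted p under 0.05, as did 13.1% of all genes. The list had a median of -0.032, with 16 below (32%) and 2 above without overlap. The list's median level was 11.5 to 11.7 on the log2 scale over these arrays. Genes of a mean log2 over 11 gave 24.8% below and 17.6% above. NDUFB3, a subunit of complex I, had 2396, 2413 and 2397 and then 2170.4, 2034 and 2085 (log2 difference -0.20, adjusted p = 0.109). HLA class I and peptide loading genes had a median of -0.16, with 5 of 15 below and 0 above, none past the test and 8 at an unadjusted p under 0.05. HLA-E had 348, 281 and 263 and 236, 243 and 242 (log2 difference -0.30, adjusted p = 0.159), and a probe set of HLA-C that does not represent the gene passed with -0.41. Replication-dependent histones had 9 of 37 below and 0 above, with a median of -0.047. Of 38 genes of the lysosome and autophagy list, 11 lay below and 5 above, with a median of -0.0083. On the other side, 5 of 17 circadian clock genes lay above and 0 below, with a median of 0.13, none past the test and 3 at an unadjusted p under 0.05. HLF, a clock output factor, had 156, 109 and 135 and 171, 192 and 168 (log2 difference 0.42, adjusted p = 0.136). Other probe sets of HLF had -0.00071 (adjusted p = 0.999), at a similar level, and 0.19 (adjusted p = 0.573). Over all genes 10.2% lay below, 9.11% lay above and 13.1% had an unadjusted p under 0.05 in limma. Since no set test was run these counts describe the lists.

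**Figure D3:**
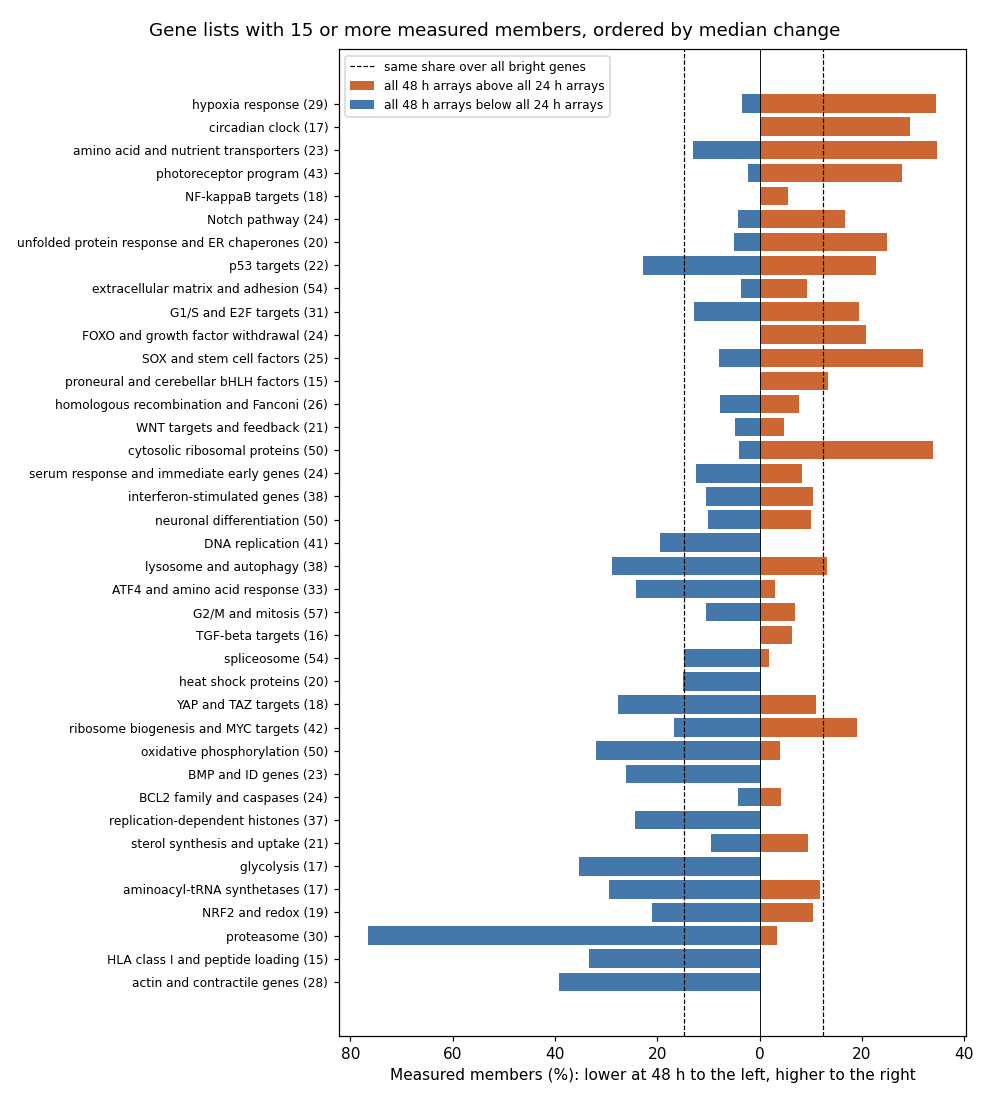
For each gene list with 15 or more measured members (number in brackets), bars give the percentage of members on which all 48 h DMSO arrays lay above (orange, to the right) or below (blue, to the left) all 24 h arrays, ordered by median log2 fold change. Dashed lines mark the same percentages over all bright genes, 12.4% above and 14.8% below, and the proteasome bar, at 76.7% below, is the longest.

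**Figure D4:**
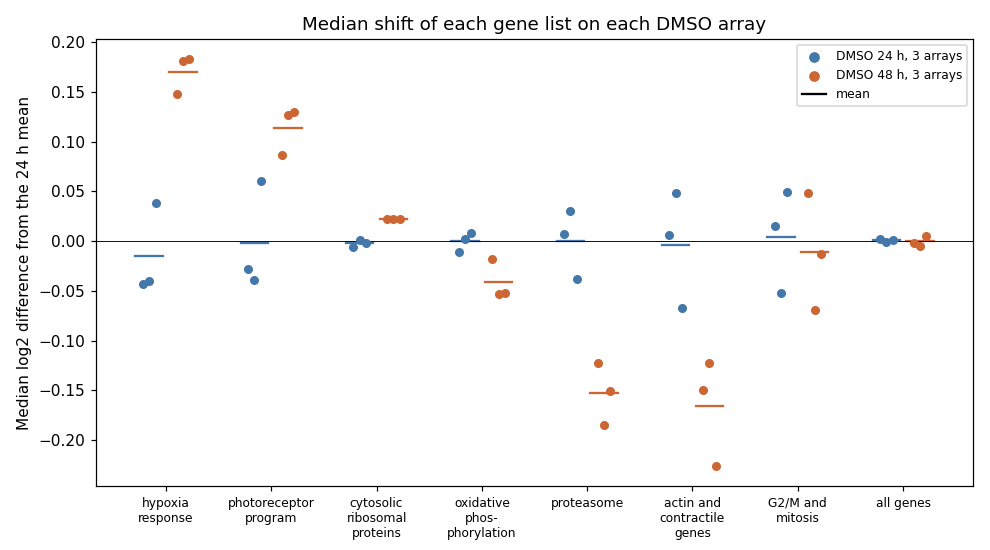
Median log2 difference of each list from the 24 h mean of its genes, 1 point per DMSO array (blue, 24 h, 3 arrays; orange, 48 h, 3 arrays) with a bar for the mean. The times are apart for the hypoxia, photoreceptor, ribosomal protein, oxidative phosphorylation, proteasome and actin lists, and overlap for G2/M and mitosis genes and for all genes.

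Proliferation genes, MYC and the drug's targets gave no call. None of 31 G1/S and E2F targets, 41 DNA replication genes and 57 G2/M and mitosis genes passed, with medians of 0.033, -0.0015 and -0.013, and at an unadjusted p under 0.05 in limma there were 3, 5 and 5 of them, where all genes gave 13.1%. Without overlap, 4, 8 and 6 members of these lists lay below and 6, 0 and 4 above. For DNA replication that is 19.5% below, where bright genes gave 14.8% below and 12.4% above. The G2/M and mitosis median per array ran from -0.052 to 0.050 at 24 h and from -0.069 to 0.048 at 48 h, which overlap. MYC had 10900.4, 11306 and 11566 at 24 h and 11315, 11817 and 11506 at 48 h (log2 difference 0.04, standard error 0.05, adjusted p = 0.864). The deacetylase HDAC1 had a log2 difference of 0.05 (adjusted p = 0.908), HDAC2 of 0.20 (adjusted p = 0.613), HDAC3 of -0.12 (adjusted p = 0.772) and HDAC8 of 0.06 (adjusted p = 0.835). PARP1, a sensor of DNA breaks, had -0.04 (adjusted p = 0.883). CCND1 was near background at 57.1, 62.7 and 60.6 and 62.6, 62.1 and 64.6, and CDKN1B, an inhibitor of cyclin-dependent kinases, had 0.12 (adjusted p = 0.612).

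The higher genes were longer than the lower ones. The median span in RefSeq was 65875 bases for the 43 higher genes, 14160 for the 48 lower and 24739 for all. Of the higher genes, 19 spanned over 100 kb and of the lower 5, against 3340 of 19738 measured genes with a span. Over bright genes, 60.6% of the 1902 longer than 100 kb had a value above 0, and 37.9% of the 2004 shorter than 10 kb. The 48 h arrays lay above without overlap for 18.5% of the former and 8.98% of the latter, and below for 7.41% and 22.2%. The medians were 0.041 and -0.034 in DMSO, and -0.00072 and -0.022 on the entinostat arrays. The part of gene length in the values of the gene lists was not tested.

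Over the same day, the entinostat arrays give the change of these genes in other samples, although these arrays also entered the estimate of the spread behind the DMSO calls. Of the 91 genes, 71 had the same sign of change (78.0%), against 56% of all genes, and 30 passed in entinostat with the same sign. Another 2, GNB3 and DCAKD, passed with the opposite sign. In entinostat 10.3% of all genes passed over the day. DOCK8 changed by 0.95 there (adjusted p = 0.00218), SNHG32 by 0.50 (adjusted p = 0.00333) and PCARE by 0.52 (adjusted p = 0.00455), close to their values in DMSO. NAP1L3 had -0.53 (adjusted p = 0.00084) and SELENOW -0.44 (adjusted p = 0.012), both lower as in DMSO. CSRP2 had -1.05 (adjusted p = 4.3e-05). GUCA1A and NEDD4L had 0.23 and 0.34 there, neither past the test, and the difference from DMSO missed the threshold with adjusted p-values of 0.0936 and 0.0623 for the interaction of time and treatment. GUCA1A was dim in entinostat, with means of 104 at 24 h and 121 at 48 h, so its log2 change there is compressed. NEDD4L had means of 253 and 322 there.

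The interaction passed for 380 genes (1.92%), and it shares the DMSO arrays with the calls above. ID1 was already at a mean of 4801 at 24 h in entinostat, against 1956 at 24 h in DMSO. It had 0.02 over the day in entinostat, so that its change differed from that in DMSO by 0.95 (adjusted p = 0.0112 from limma). CSNK1G1 had 0.03, a difference of -0.76 (adjusted p = 0.0108). GNB3 went the other way, by -0.40 (adjusted p = 0.0246), a difference of -0.95 (adjusted p = 0.00759). The log2 fold change of DDIT4, which was near 0 in entinostat, gave an interaction with adjusted p = 0.0623, which missed the threshold.

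**Figure D5:**
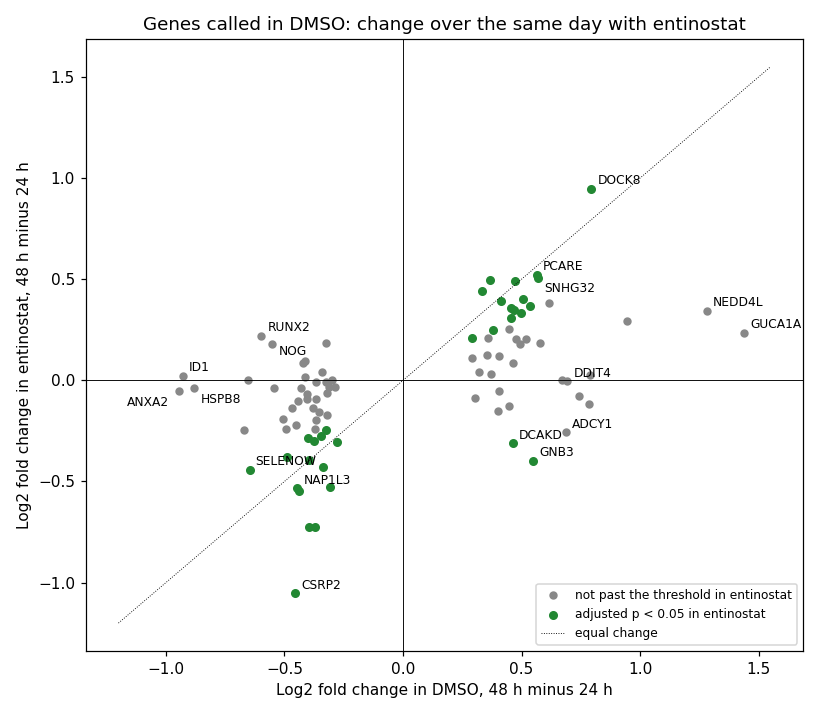
For the 91 genes called in DMSO, the log2 fold change from 24 h to 48 h in DMSO (x axis) is set against that in entinostat (y axis), 3 arrays per group, with a dotted line for equal change. Green marks genes past an adjusted p of 0.05 in entinostat too. DOCK8, SNHG32 and PCARE lie near the line, CSRP2 lies beyond it, GUCA1A and NEDD4L, at 0.23 and 0.34 on the y axis, lie well below it, and GNB3 and DCAKD lie on the opposite side.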

How the data were processed

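RNA of HD-MB03 cells was measured on 12 arrays, 3 per group. Per the methods, the authors extracted RNA with a column kit and normalized the arrays with GCRMA at a core facility (version not given in the sources used here), followed by log2. The deposited intensities are on a linear scale with a background level left, so they may be another export, and log2 was taken here without a further normalization. Groups come from the sample titles. The test covered 54613 probe sets, without the 62 controls. Of these, 41091 name 1 gene (54 by an older symbol that was not updated), 1801 several and 11721 none. The table had 2 empty cells. The probe set of the highest mean stood for each of 19775 genes. The model of limma 3.58.1 (R 4.3.3) had a mean for each of the 4 groups, which share an estimate of the spread over the 12 arrays. P-values were adjusted by Benjamini-Hochberg over the probe sets, and those under 0.05 were called. The number of arrays limits the precision.

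The comparison, the 51 gene lists, the motifs and the named genes were chosen with earlier results of these data known. Named are the 15 largest rises and falls past the threshold whose arrays do not overlap and whose brighter mean log2 is at least 7, up to 4 members per described list that passed (or the 1 with the smallest p), the 8 smallest interaction p-values, and MYC, HDAC1, HDAC2, HDAC3, HDAC8, PARP1, ID1, ID2, ID3, TXNIP, CCND1, CDKN1A and CDKN1B. Genes outside this rule were chosen after their values were seen. Gene windows and spans come from RefSeq (GRCh38.p14), and 15384 of the genes matched a window. The motifs searched on both strands were the CRX and OTX core, the hypoxia core and the NRL core TGCTGA (median log2 fold change -0.0007 for 1295 genes of a mean log2 of at least 7 with it and -0.0063 for 6528 without), besides a pyrimidine run of at least 5 bases that opens with C at the start. The procedure was tested on simulated data with changes set in bright probe sets. It recovered 2 of 50 changed by 0.25 on the log2 scale, 30 of 50 changed by 0.5 and 48 of 50 changed by 1.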

Additional observations from a re-analysis of the deposited data

Results flagged for a closer look

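For 14 of the named genes that passed in DMSO, the change over the day differed between entinostat and DMSO by the interaction term of limma (n = 3 arrays per group). The difference is given as the log2 change in entinostat minus that in DMSO. Among genes higher at 48 h in DMSO, it was -0.95 for GNB3, -0.94 for ADCY1 (adjusted p = 0.0291), -0.90 for PAPPA2 (adjusted p = 0.0286) and -0.77 for DCAKD (adjusted p = 0.0103). It was -0.76 for CSNK1G1, -0.67 for SRGAP3 (adjusted p = 0.0443), -0.58 for MATN2 (adjusted p = 0.0228) and -0.56 for SLC39A11 (adjusted p = 0.011). PAPPA2 was near background in entinostat, with means of 102 at 24 h and 93.9 at 48 h, so a change there is compressed.

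Among genes lower at 48 h in DMSO, the difference was 0.95 for ID1, 0.82 for RUNX2 (adjusted p = 0.0292), 0.73 for NOG (adjusted p = 0.0287), 0.51 for CIB1 (adjusted p = 0.00872) and 0.51 for PARP12 (adjusted p = 0.0187). CSRP2, at -0.60 (adjusted p = 0.0287), was the 1 gene of the 14 whose change was larger in entinostat and in the same direction. The DMSO change enters both the choice of these genes and the difference itself. In DMSO, the log2 fold changes of the genes not given before were 0.46 for DCAKD, 0.45 for MATN2, 0.40 for SLC39A11, -0.42 for CIB1 and -0.33 for PARP12.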

How the results depend on the processing

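Fewer calls were made with the 6 DMSO arrays alone (0 probe sets and 0 genes, in either direction) and after subtracting 30 from every value (26 probe sets, 19 higher and 7 lower, and 7 genes, 5 higher and 2 lower). With a further limit of 0.5 on the absolute log2 fold change there were 59 probe sets (39 higher, 20 lower) and 28 genes (18 higher, 10 lower). More were made among probe sets with a mean log2 of at least 7 in the brightest group (490 probe sets, 260 higher and 230 lower, and 252 genes, 120 higher and 132 lower, of which 87 were among the 91). At an adjusted p under 0.1, an alternative chosen after seeing the data, there were 652 probe sets (356 higher, 296 lower) and 306 genes (153 higher and 153 lower). Arrays of the same number were not treated as pairs, since same-numbered DMSO arrays correlated at 0.043 to 0.088 after the group means were removed, although each of the 6 correlated best with its own number. Over the 18 same-numbered pairs of all 4 groups the correlations ran from -0.061 to 0.20. With the replicate block, 320 probe sets (186 higher, 134 lower) and 156 genes (83 higher, 73 lower, 77 of them among the 91) were called.

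Leaving out 1 DMSO array at a time gave 1 to 344 probe sets (1 to 191 higher, 0 to 153 lower) and 0 to 166 genes (0 to 89 higher, 0 to 77 lower), with 0 genes without 48 h replicate 3. It gave 123 to 271 genes with an interaction against 380, and 0 to 18 lists with a called member against 13. On the bright probe sets there were 682 genes with an interaction and 25 such lists, and after subtracting 30 there were 3 such lists. The other counts stayed within 1.5 times under centred arrays, quantile normalization, an intensity trend with a robust prior, normexp, another choice of probe set and the removal of probe sets marked _x_at or _s_at. Without the latter, ANXA2 was represented by its background probe set (0.0012, adjusted p = 0.998). MATN2 was then represented by another that is also at background, with means of 62.6 at 24 h and 61.2 at 48 h in DMSO (-0.027, adjusted p = 0.949). With the probe set of the strongest treatment effect ZFAS1 had -0.14 (adjusted p = 0.876). These were the 3 changes of sign among the 42 named genes that passed, while PARP1, which did not pass, ran from -0.09 to 0.0085 when 1 array was left out.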
